A study of Bos taurus with 30 samples.

Results

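The proteasome genes described here are the 38 genes whose probe sets carry a single symbol made of PSM, a letter from A to G and a number, with the immunoproteasome genes PSMB8 and PSMB9 left out. They are 38 of the 7016 genes with 1 symbol and a measured probe set on a bovine expression array (Affymetrix), where short probes grouped in probe sets report the RNA of a gene. The 38 genes had 44 probe sets; 32 genes had 1, and for the 6 with a pair the set with the higher mean over the 30 arrays stands for the gene. The arrays measured RNA of skin biopsies from 13 F2 animals, the crossbred descendants of Gyr cattle (Bos indicus) and of Holstein cattle (Bos taurus). The resistant group had 6 animals, with 5 arrays before tick infestation (0 h), 6 at 24 h and 5 at 48 h after it. The susceptible group had 7 animals, with 3, 6 and 5 arrays at the same times. All animals were of this cross, all biopsies after 0 h came from infested skin, and not every animal has an array at each time. Age and sex are not given in the sources used here, and the labels give no measure of how far resistance differed between the groups.

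The proteasome is the protease complex that degrades most proteins tagged with ubiquitin. Its 20S core is a barrel of alpha and beta rings with the proteolytic sites inside, on beta subunits, and the 19S regulator caps the barrel, binds the ubiquitin chain and unfolds the substrate with a ring of ATPases. Under interferon, the catalytic subunits are exchanged for PSMB8, PSMB9 and PSMB10, and the PA28 activator (PSME1 with PSME2) is induced, which changes the peptides offered to T cells by MHC class I. In skin this takes place in keratinocytes and in the immune cells that enter a tick feeding site.

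The 38 genes comprised 6 alpha ring subunits (PSMA1 and PSMA3 to PSMA7), 7 beta ring subunits (PSMB1 to PSMB7), 6 ATPases of the 19S base (PSMC1 to PSMC6), 3 other base subunits (PSMD1, PSMD2, PSMD4) and 4 lid subunits (PSMD6, PSMD11, PSMD13, PSMD14). They also held 6 assembly chaperones (PSMD5, PSMD9, PSMD10, PSMG1, PSMG2, PSMG3), 3 activator genes (PSME1, PSME2, PSME4) and the inhibitor PSMF1. Not all of them are constitutive subunits: PSMB10 is an immunoproteasome subunit, PSME1 and PSME2 respond to interferon, and PSME3IP1 encodes a protein that binds the activator PSME3. PSMA2, PSMA8, PSMB11, PSMD3, PSMD7, PSMD8, PSMD12, PSME3 and PSMG4 were not analysed here. All 38 genes passed the filter on low signal, and each lay at or above the median of its array in 30 of 30 arrays. Mean probe signal ranged from 8.93 for PSMB10 to 13.33 for PSMA7 on the log2 scale; signals of different probe sets are not compared as amounts of RNA.

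Array medians lay between 7.17 and 7.40, and precision is set by how many arrays a group has. The skin label was borne out by keratin signal: KRT5, KRT14 and KRT10, the 3 measured of 5 keratinocyte markers, together averaged 12.63 to 13.37 over the 6 groups. In 3 resistant arrays at 0 h, numbered 3, 4 and 5, the pattern of 100 probe sets that differ between animals lay closest to the later arrays of animals 4, 5 and 6 (r = 0.94, 0.89 and 0.93), whereas the other 5 arrays at 0 h lay closest to their own number. Results that use these numbers as a pairing are given in the closing section. In whole skin, fewer cells of a type and less RNA per cell cannot be told apart.

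Resistant and susceptible skin were first compared at each time, the comparison that asks whether proteasome expression differs with tick resistance. No proteasome gene passed the adjusted threshold of 0.05 in limma at 0 h, 24 h or 48 h, where 0%, 0% and 0.0145% of the 13809 probe sets tested passed. At an unadjusted p under 0.05, 1 of 38 genes stood out at 0 h (2.63% against 4.51% of all probe sets), 1 at 24 h (2.63% against 4.4%) and 2 at 48 h (5.26% against 10.1%). These shares lay below those of all probe sets, but each rests on only 1 or 2 genes. At no time did the resistant and susceptible arrays of any of the 38 genes fail to overlap, while 4.62%, 0.167% and 1.19% of all probe sets separated them at 0 h, 24 h and 48 h.

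The direction of the small differences was most uniform at 24 h. In resistant skin 35 of 38 genes (92.1%) had a higher mean than in susceptible skin, with a median log2 difference of 0.13 and a range from -0.07 (PSMB10) to 0.33 (PSMA4). Over all 13809 probe sets 49.6% were higher and the median was -0.00, and among the 6622 probe sets whose mean signal lay within the range of the proteasome genes 50.5% were higher. The 3 genes on the other side were PSMB10, PSMG1 and PSMG3. Without the array of susceptible animal 12 the count was 32 of 38 and the median was 0.08. Mitochondrial ribosomal proteins (55 of 67 higher, median 0.08) and the respiratory chain (70 of 82, median 0.09) leaned the same way at 24 h, whereas cytosolic ribosomal proteins did not (39 of 73, median 0.00).

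Markers of other skin cells are given beside the 24 h values. The mean of the 3 keratinocyte markers was 12.94 to 13.61 in the resistant arrays and 11.81 to 13.75 in the susceptible arrays, so that the resistant range lay inside the susceptible one, and the lowest array was again that of susceptible animal 12. Of the 3 markers 2 were higher in resistant skin, with a median log2 difference of 0.45. At an unadjusted p under 0.05 stood 1 of the 3, and none was called. Endothelial markers (5 of 5 measured) were lower in resistant skin in 5 of 5 cases, with a median log2 difference of -0.58 and 3 at an unadjusted p under 0.05, none called. Their mean was 9.06 to 9.88 in the resistant arrays and 9.29 to 10.65 in the susceptible arrays, with susceptible animal 12 highest. The part of keratinocyte or endothelial content in the 24 h values of the proteasome genes was not tested.

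At 0 h 29 of 38 genes were higher in resistant skin (median 0.05, all probe sets -0.01), and at 48 h 22 of 38 were (median 0.04, all probe sets -0.04). The 48 h median was 0.15 without the array of resistant animal 1 and -0.03 without that of susceptible animal 11, and it was also below 0 without resistant animal 3 (-0.02) or 5 (-0.03). The 95% intervals of the differences were narrow: 32, 34 and 34 of 38 genes had an interval wholly within a 1.5-fold change either way at 0 h, 24 h and 48 h. The same held for 60.6%, 75.9% and 65% of the probe sets of similar signal, and for 41.8%, 60.1% and 48.7% of all. A 2-fold change lay outside the interval of 37, 38 and 37 of the 38 genes, and the exception at 0 h and at 48 h was PSMB10. This also held for 90.6%, 94.9% and 91.1% of the probe sets of similar signal, and for 80.4%, 89.1% and 83.8% of all.

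**Figure D1:**
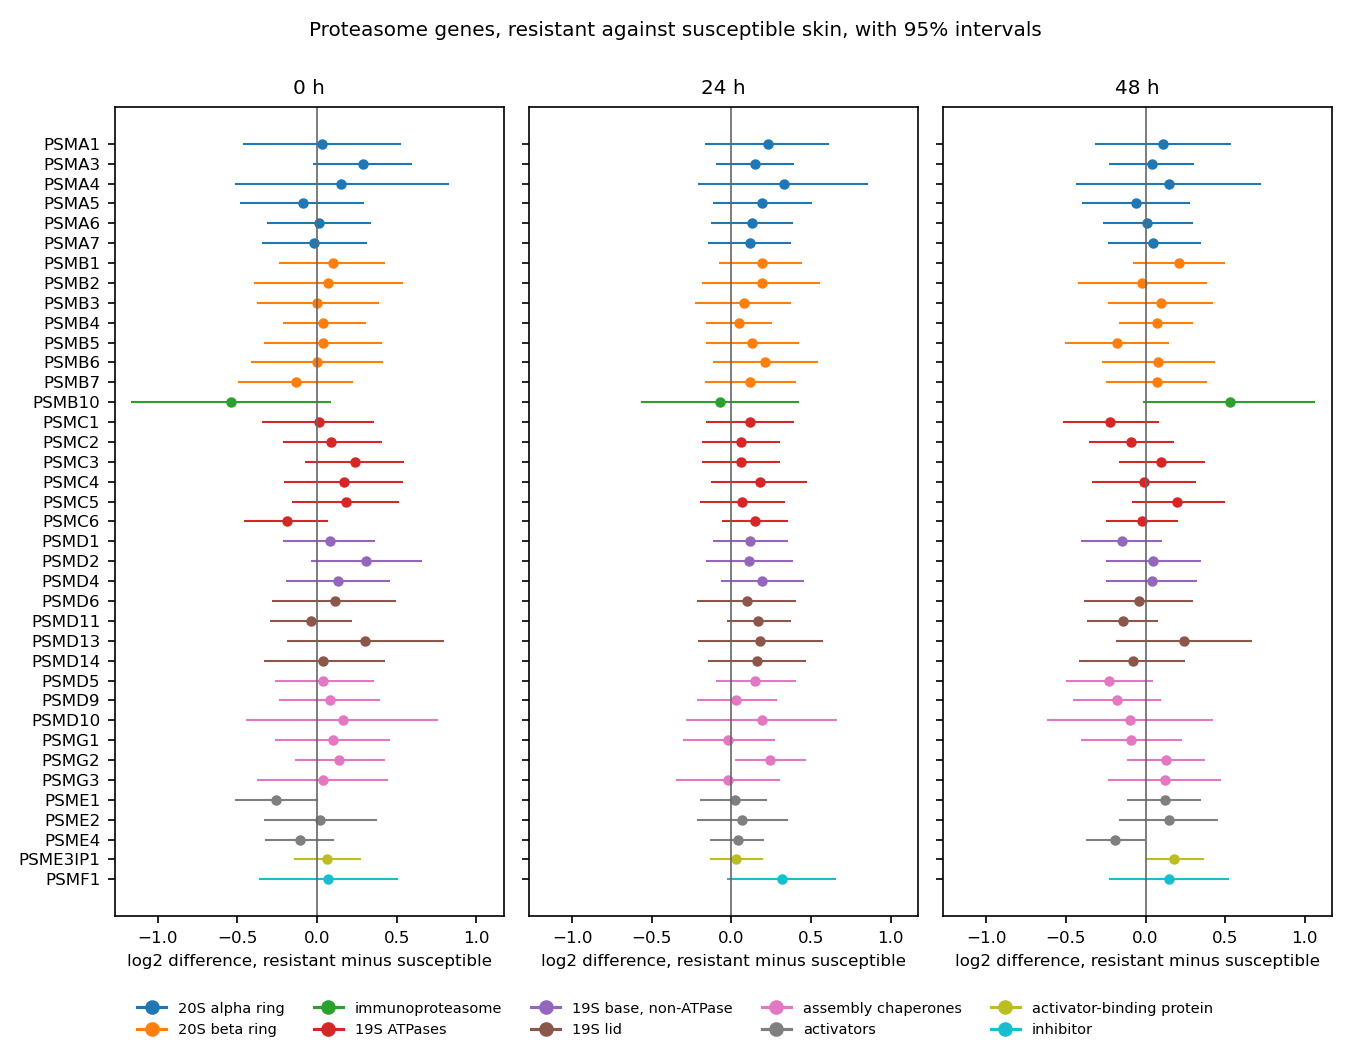
Log2 difference of each of the 38 proteasome genes, resistant minus susceptible skin, at 0 h, 24 h and 48 h, with 95% intervals from limma; colours mark subcomplexes. At 24 h 35 of 38 points lie right of 0 with a median of 0.13, and PSMB10 lies at -0.54 at 0 h and at 0.53 at 48 h.

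The alpha ring, which gates the barrel, was higher in resistant skin at 24 h for 6 of 6 genes, with a median of 0.17. PSMA3 gave the strongest difference of the ring at 0 h: it had 12.19, 12.20, 12.44, 12.46 and 12.42 in resistant skin, against 12.01, 11.91 and 12.25 in susceptible skin. The groups overlapped only through susceptible animal 11. The difference was 0.29 ± 0.15 (SE, adjusted p = 1). PSMA4 varied most among all 38 genes, with a residual SD within groups of 0.471. At 24 h its lowest, median and highest signals were 11.32, 11.48 and 11.69 in resistant skin, against 10.85, 11.27 and 11.40 in susceptible skin. At 48 h it had 10.67, 10.42, 12.11, 12.03 and 11.57 in resistant skin, against 11.55, 11.75, 10.73, 10.98 and 11.05 in susceptible skin, where the resistant arrays enclosed the susceptible ones on both sides. PSMA5 was higher in susceptible skin at 48 h than at 24 h by 0.23, with an adjusted p of 1. PSMA7, the gene with the brightest probe set, differed by 0.12 or less between phenotypes at every time.

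All 7 beta ring genes were higher in resistant skin at 24 h (median 0.13, range 0.05 to 0.21), as were 5 of 7 at 0 h and 5 of 7 at 48 h. PSMB5, PSMB6 and PSMB7 carry the chymotrypsin-like, caspase-like and trypsin-like sites of the constitutive proteasome. PSMB5 had 12.08, 12.13, 12.19, 12.02 and 12.15 in resistant skin at 0 h, against 11.99, 12.06 and 12.17 in susceptible skin. At 48 h it had 11.39, 11.75, 12.42, 12.20 and 12.04 in resistant skin, against 12.24, 12.47, 12.25, 11.63 and 12.13 in susceptible skin. The values were close together before infestation and spread over about 1 log2 unit at 48 h, with resistant animal 1 and susceptible animal 11 lowest in their groups. PSMB6 had a lowest, median and highest signal of 11.95, 12.23 and 12.53 in resistant skin at 24 h, against 11.63, 12.03 and 12.32 in susceptible skin, a difference of 0.21. PSMB7 averaged 11.70 ± 0.12 in resistant skin and 11.58 ± 0.28 in susceptible skin at that time (SD, n = 6 each). For both genes the groups overlapped, and the lowest susceptible arrays lay below every resistant array.

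PSMB10, the interferon-induced counterpart of PSMB7, had the lowest resistant value relative to susceptible skin at 0 h and the highest at 48 h among the 38 genes. At 0 h it had 8.80, 8.61, 9.09, 8.80 and 7.98 in resistant skin, against 9.02, 9.29 and 9.27 in susceptible skin. At 24 h its lowest, median and highest signals were 8.02, 8.78 and 9.74 in resistant skin, against 8.33, 9.04 and 9.34 in susceptible skin. At 48 h it had 9.68, 9.47, 8.97, 9.58 and 8.99 in resistant skin, against 8.67, 8.92, 8.58, 9.05 and 8.84 in susceptible skin. Resistant arrays were mostly below susceptible ones before infestation and mostly above them at 48 h, with overlap of 1 animal at 0 h and of 1 susceptible animal at 48 h.

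The fitted PSMB10 difference was -0.54 ± 0.30 at 0 h (SE, adjusted p = 1), -0.07 at 24 h and 0.53 ± 0.26 at 48 h (adjusted p = 0.501). Within resistant skin PSMB10 at 48 h exceeded its 0 h level by 0.68 ± 0.26 (1.61-fold, adjusted p = 0.347), while in susceptible skin the difference was -0.38 (adjusted p = 1). The difference between phenotypes of the 48 h response was 1.07 ± 0.40 (95% interval 0.25 to 1.89, unadjusted p = 0.0123, adjusted p = 1 in limma). It did not pass the threshold, and 2.93% of all probe sets had an unadjusted p under 0.05 in that comparison.

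PSMB8 and PSMB9, the other immunoproteasome subunits, are given beside PSMB10. The 48 h response differed between phenotypes by 0.94 ± 0.41 for PSMB8 and by 1.17 ± 0.40 for PSMB9 (SE, adjusted p = 1 for each). At 48 h against 0 h in resistant skin PSMB8 was higher by 0.90 ± 0.27 (adjusted p = 0.28) and PSMB9 by 0.82 ± 0.26 (adjusted p = 0.298). The PSMB8 arrays of the 2 times did not overlap, as for 1.98% of all probe sets, and those of PSMB9 met at 9.43, the highest at 0 h and the lowest at 48 h at this rounding. PSMB8 signal was low at 0 h in resistant skin, 6.75 to 7.85, around the array medians of 7.17 to 7.40. Macrophage markers, all 5 of 5 measured, were also higher at 48 h: their mean was 9.13 to 10.20 in resistant arrays and 7.26 to 9.12 in susceptible arrays. Ranges of the other immune markers overlapped at 48 h. Mast cell markers, 3 of 3 measured, were all higher in resistant skin, with a median log2 difference of 1.57. In limma 2 of the 3 had an unadjusted p under 0.05 (all probe sets 10.1%), and none was called. Their mean was 7.62 to 9.27 in resistant and 5.95 to 7.73 in susceptible arrays. The leukocyte marker PTPRC was 8.48 to 11.52 in resistant and 8.78 to 10.30 in susceptible arrays. The mean of the T and NK cell markers was 6.89 to 8.20 in resistant and 6.78 to 7.73 in susceptible arrays. The T and NK cell values and the mast cell values lay partly below the array medians of 7.17 to 7.40. The part of immune cell content in the PSMB10 values was not tested.

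The immunoproteasome subunits were also set against the constitutive subunits they replace, array by array, as the log2 difference PSMB8 minus PSMB5, PSMB9 minus PSMB6 and PSMB10 minus PSMB7. For PSMB10 minus PSMB7 this was -2.88 ± 0.46 in resistant skin (SD, n = 5) and -2.48 ± 0.12 in susceptible skin (n = 3) at 0 h. At 48 h it was -2.35 ± 0.65 in resistant skin and -2.81 ± 0.32 in susceptible skin (n = 5 each). All 3 pairs ran the same way, with resistant minus susceptible at -0.51, -0.70 and -0.41 at 0 h and at 0.64, 0.40 and 0.46 at 48 h. Without the 48 h array of resistant animal 1 the 48 h values were 0.40, 0.14 and 0.22, and without the 0 h array of resistant animal 5 the PSMB10 minus PSMB7 value at 0 h was -0.22. Groups overlapped in each of the 9 comparisons. Exact two-sided permutation tests gave p-values from 0.0893 to 0.61, and adjusted over the 9 they were 0.417 or 0.61. The smallest p that the design allows is 0.0179 at 0 h, 0.00216 at 24 h and 0.00794 at 48 h.

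**Figure D2:**
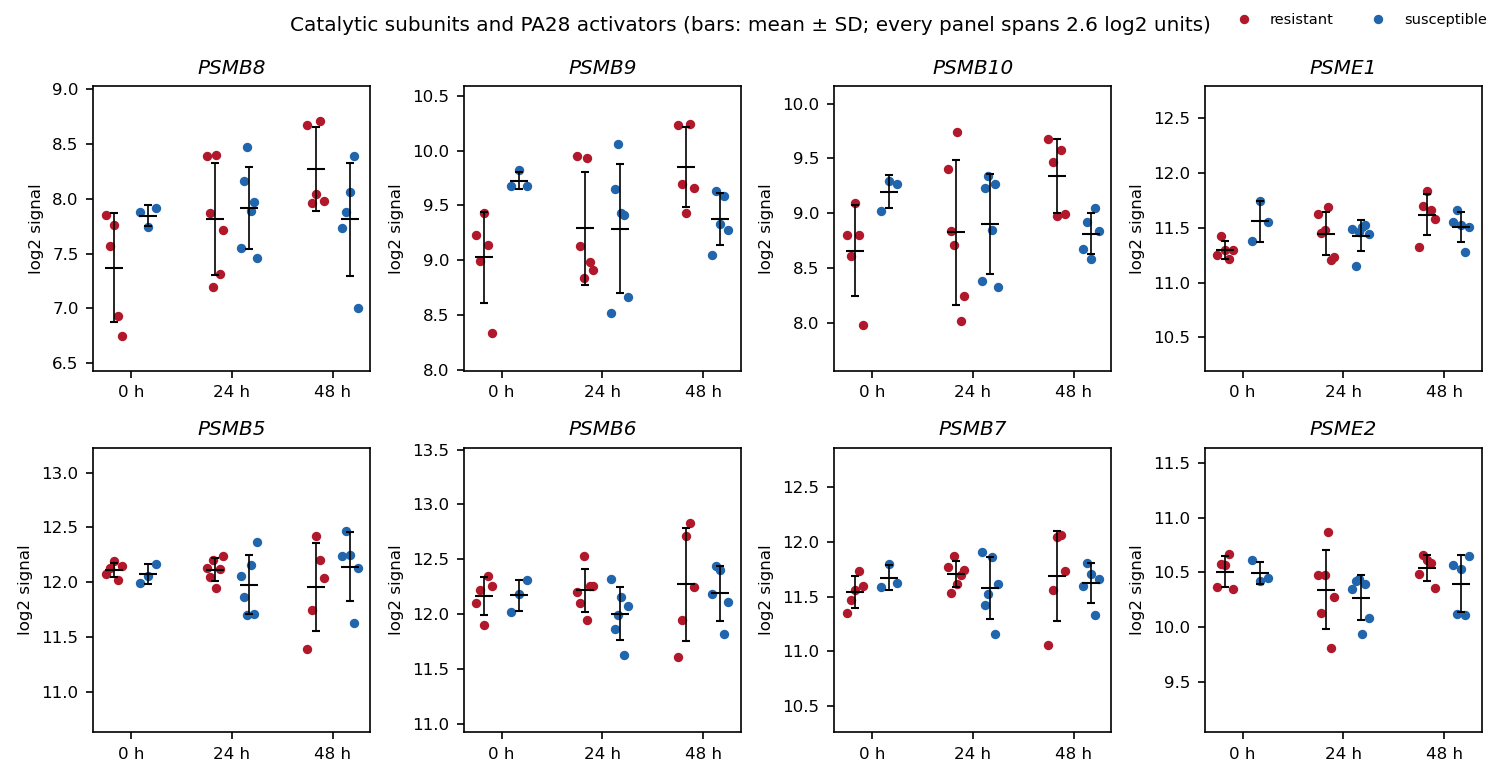
Log2 signal in every array of the immunoproteasome subunits PSMB8, PSMB9 and PSMB10 above the constitutive subunits PSMB5, PSMB6 and PSMB7, with PSME1 and PSME2 of the PA28 activator at the right. Red points are resistant and blue points susceptible arrays, bars are mean ± SD, and PSMB10 averages 8.66, 8.82 and 9.34 in resistant skin and 9.20, 8.90 and 8.81 in susceptible skin at 0 h, 24 h and 48 h.

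The PA28 genes differed from each other. PSME1 had 11.25, 11.43, 11.30, 11.22 and 11.30 in resistant skin at 0 h, against 11.38, 11.75 and 11.55 in susceptible skin. Only resistant animal 2 lay above the lowest susceptible animal. The difference was -0.26 ± 0.12 (adjusted p = 1), the 1 gene with an unadjusted p under 0.05 at 0 h. At 48 h PSME1 had 11.33, 11.70, 11.84, 11.66 and 11.58 in resistant skin, and within resistant skin it exceeded the 0 h level by 0.32 ± 0.11 (1.25-fold, adjusted p = 0.316). The 48 h response differed between phenotypes by 0.37 ± 0.16 for PSME1 (adjusted p = 1). PSME2, its partner in the ring, had 10.37, 10.58, 10.57, 10.67 and 10.35 in resistant skin at 0 h, against 10.61, 10.42 and 10.45 in susceptible skin. Its groups lay on top of each other, and PSME2 differed between phenotypes by 0.02, 0.07 and 0.15 at 0 h, 24 h and 48 h.

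PSME4 encodes PA200, an activator linked to histone degradation, and was among the steadiest of the genes, with a residual SD of 0.108. At 48 h PSME4 had 10.13, 10.10, 10.04, 9.98 and 10.05 in resistant skin, against 10.09, 10.24, 10.33, 10.28 and 10.32 in susceptible skin. Susceptible animal 7 alone fell among the resistant arrays. The difference was -0.19 ± 0.09 (0.877-fold, adjusted p = 0.482). PSME3IP1 differed the other way at 48 h: it had 9.31, 9.40, 9.39, 9.32 and 9.49 in resistant skin, against 9.34, 9.09, 9.15, 9.16 and 9.25 in susceptible skin, a difference of 0.18 ± 0.09 (adjusted p = 0.483). Within susceptible skin PSME3IP1 was 0.22 lower at 48 h than at 24 h (log2 difference -0.22 ± 0.08, adjusted p = 1). The inhibitor PSMF1, which binds the core and blocks it in vitro, had a lowest, median and highest signal of 8.90, 9.25 and 9.47 in resistant skin at 24 h, against 8.41, 8.85 and 9.41 in susceptible skin. Its difference was 0.32 ± 0.17 (adjusted p = 0.978).

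Among the ATPases, 6 of 6 were higher in resistant skin at 24 h (median 0.09) and 2 of 6 at 48 h (median -0.01). PSMC6 was the one gene of the 38 whose arrays separated 24 h from 0 h in resistant skin, where 0.681% of all probe sets did so. Its lowest, median and highest signals were 11.13, 11.26 and 11.61 at 24 h, against 11.09, 10.80, 10.98, 10.90 and 11.09 in the 5 arrays at 0 h. The difference was 0.36 ± 0.10 (1.28-fold, adjusted p = 0.553), and the second PSMC6 probe set gave 0.15. At 48 h PSMC6 had 10.94, 10.89, 11.22, 11.26 and 11.02 in resistant skin, with a difference of -0.27 ± 0.10 from 24 h (adjusted p = 0.452). The 24 h response of PSMC6 differed between phenotypes by 0.34 ± 0.16 (adjusted p = 1). PSMC1, another ATPase of the ring, had 10.06, 10.41, 10.55, 10.59 and 10.68 in resistant skin at 48 h, against 10.92, 10.42, 10.78, 10.46 and 10.80 in susceptible skin. In susceptible skin PSMC1 at 48 h was 0.26 above 0 h and 0.22 above 24 h, neither past the threshold (adjusted p = 1).

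The base and lid subunits bind ubiquitin, hold the ATPases and remove the ubiquitin chain. All 3 base genes and all 4 lid genes were higher in resistant skin at 24 h, with medians of 0.12 and 0.17. PSMD2, a base scaffold, had 11.56, 11.77, 11.25, 11.32 and 11.67 in resistant skin at 0 h, against 11.08, 11.32 and 11.22 in susceptible skin. The difference was 0.31 ± 0.16 (adjusted p = 1), and in resistant skin PSMD2 at 48 h was lower than at 0 h (log2 difference -0.29 ± 0.14, adjusted p = 0.45). PSMD1, its neighbour in the base, gave 0.16 at 24 h and 0.20 at 48 h against 0 h in susceptible skin (adjusted p = 1 for each).

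PSMD11, a lid subunit, had a lowest, median and highest signal of 11.72, 11.83 and 11.92 in resistant skin at 24 h, against 11.44, 11.60 and 11.88 in susceptible skin. Susceptible animals 8 and 13 reached the resistant range and the other 4 lay below it. The difference was 0.17 ± 0.10 (adjusted p = 0.978). Within resistant skin the 24 h level of PSMD11 was 0.23 ± 0.10 above 0 h (adjusted p = 1), and its 48 h level differed from 24 h by -0.22 ± 0.10 (adjusted p = 0.493). For PSMD6, which has a pair of probe sets, the sets disagreed in sign at 0 h (0.11 and -0.21) and at 24 h (0.10 and -0.04). So did those of PSMC5 (0.18 and -0.04 at 0 h, 0.07 and -0.12 at 24 h), PSMC2 at 24 h (0.06 and -0.03), PSMB2 at 0 h (0.07 and -0.01), PSMC6 at 0 h (-0.19 and 0.09) and PSMD4 at 48 h (0.04 and -0.07). At 24 h, 3 of the 6 second probe sets were lower in resistant skin, and 38 of all 44 probe sets were higher.

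The assembly chaperones, which build the rings and are not part of the finished complex, were 4 of 6 higher in resistant skin at 24 h, and 6 of 6 were lower at 48 h than at 0 h within resistant skin (median -0.07). PSMG2, a chaperone of alpha ring assembly, had 11.02, 11.03, 10.95, 11.11, 10.97 and 10.89 in resistant skin at 24 h, against a lowest, median and highest signal of 10.61, 10.67 and 11.06 in susceptible skin. Susceptible animal 8 alone lay within the resistant range. The difference of 0.24 ± 0.11 had the smallest p of the 38 genes at 24 h (adjusted p = 0.978). PSMD5, a chaperone of the 19S base, had 10.35, 10.48, 10.75, 10.26 and 10.70 in resistant skin at 48 h, against 10.50, 11.07, 10.94, 10.70 and 10.82 at 0 h. The log2 difference was -0.30 ± 0.13 from 0 h (adjusted p = 0.394) and -0.34 ± 0.12 from 24 h (adjusted p = 0.433). PSMD10, also called gankyrin, had 8.07, 8.62, 8.61, 9.23 and 9.14 in resistant skin at 48 h, against 9.28, 8.99, 8.89, 9.54 and 9.68 at 0 h, a log2 difference of -0.54 (0.687-fold, adjusted p = 0.432).

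Over time, resistant skin showed no called gene in any pair of times, and neither did susceptible skin, with 0% of all probe sets past the adjusted threshold in each of these 6 comparisons. The times share animals: with the animal as a fixed block, 84 of all probe sets passed at 48 h against 0 h in resistant skin, none of them a proteasome gene. In resistant skin 3 of 38 genes had an unadjusted p under 0.05 at 24 h against 0 h (7.89%, all probe sets 4.72%). At 48 h there were 5 against 0 h (13.2%, all probe sets 11%) and 4 against 24 h (10.5%, all probe sets 9.65%). In susceptible skin there were 0 at 24 h against 0 h (all probe sets 2.3%), 0 at 48 h against 0 h (all probe sets 0.949%) and 1 at 48 h against 24 h (2.63%, all probe sets 1.88%). Apart from PSMC6, no proteasome gene separated a pair of times in resistant skin, where 0.681%, 1.98% and 0.898% of all probe sets separated 24 h from 0 h, 48 h from 0 h and 48 h from 24 h. The 0 h arrays are shared between these comparisons.

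The median log2 difference of the 38 genes in resistant skin was 0.07 at 24 h and 0.03 at 48 h against 0 h (27 and 23 of 38 higher), and -0.07 at 48 h against 24 h (27 of 38 lower). Without the 48 h array of resistant animal 1 the medians at 48 h were 0.10 against 0 h and 0.02 against 24 h, and without that of animal 3 or 5 the median against 0 h was -0.02 or -0.04. In susceptible skin the medians were 0.01, 0.04 and 0.04, with 20, 23 and 29 of 38 higher, and without 1 array they ran from -0.04 to 0.06, from -0.00 to 0.13 and from 0.01 to 0.13. For the difference between phenotypes of the response, 0% of probe sets passed the adjusted threshold at 24 h and at 48 h. At an unadjusted p under 0.05 stood 1 gene at 24 h (PSMC6, 2.63% against 1.85% of all probe sets) and 2 at 48 h (PSMB10 and PSME1, 5.26% against 2.93%).

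The proteasome genes varied together from array to array. Each gene's deviation from its own mean over the 30 arrays was taken, and the median over the 38 genes summarised an array. This value was -0.39 in the 48 h array of resistant animal 1, where 35 of 38 genes lay below their own mean and 47.2% of all probe sets lay above theirs. It was -0.30 in the 48 h array of susceptible animal 11, again with 35 of 38 below, and -0.28 in the 24 h array of susceptible animal 12. At the other end stood 0.19 for resistant animal 3 at 24 h, where 36 of 38 genes lay above their mean, and 0.19 for resistant animal 5 and 0.18 for resistant animal 3 at 48 h. The highest susceptible array was that of animal 8 at 24 h (0.19, 32 of 38 above). Low and high arrays thus occurred in both phenotypes.

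The group means of this value were -0.00 ± 0.07, 0.06 ± 0.09 and -0.00 ± 0.24 in resistant skin at 0 h, 24 h and 48 h (SD, n = 5, 6 and 5). In susceptible skin they were -0.04 ± 0.04, -0.05 ± 0.18 and -0.01 ± 0.17 (n = 3, 6 and 5). The highest and lowest group means were 0.06 and -0.05. The pooled SD between arrays within groups was 0.156, which is not the standard error of a difference. In resistant skin the spread between arrays was wider at 48 h than at 0 h. In susceptible skin the SD was also larger at 48 h, but this rested on the array of animal 11 (-0.30). The other susceptible arrays at 48 h lay between 0.02 and 0.10, against -0.09 to -0.00 for the 3 arrays at 0 h.

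The core, the 19S and the chaperones took part. In the 48 h array of resistant animal 1 the median deviation was -0.41 for the alpha ring, -0.55 for the beta ring, -0.37 for the ATPases, -0.41 for the lid and base and -0.33 for the chaperones. No gene of these 5 groups lay above its own mean there. The same was true of susceptible animal 11 at 48 h, with medians between -0.42 and -0.21. PSMB10 and the inhibitor PSMF1 lay above their own means in both arrays. The activators were mixed: PSME1 lay below its mean in both, and PSME2 did so in that of susceptible animal 11. In the array of resistant animal 1 PSMB10 deviated by 0.75, PSME2 by 0.07, PSMF1 by 0.02, PSME4 by -0.01 and PSME1 by -0.14. In that of susceptible animal 11 PSMB10 deviated by 0.11, PSME4 by 0.14, PSMF1 by 0.18, PSME1 by -0.18 and PSME2 by -0.31.

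**Figure D3:**
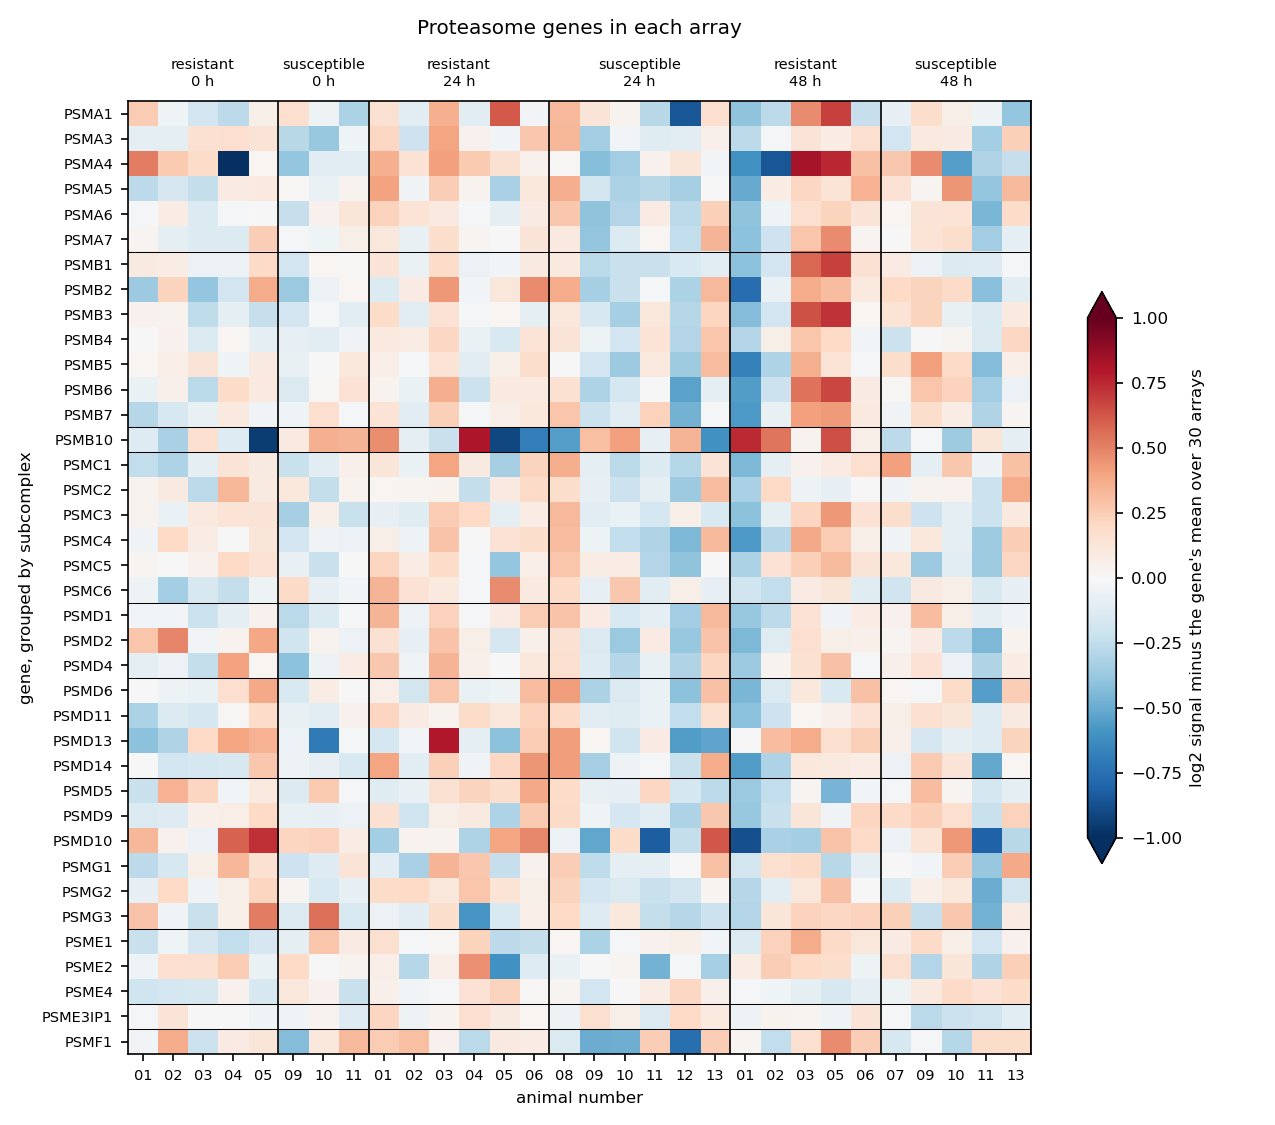
Log2 signal minus the gene's mean over 30 arrays for the 38 proteasome genes (rows, grouped by subcomplex) in each array (columns, by group and animal number); values beyond ±1 take the end colours. The 48 h columns of resistant animal 1 and susceptible animal 11 are blue in 35 of 38 rows each, and the PSMB10 row runs against its neighbours.

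To put a number on this, each gene was scored by the arrays in which it lay on the same side of its mean as the median of the other proteasome genes. The 38 genes scored a median of 20 of 30 arrays, and 22 of them (57.9%) reached 20 or more. Over all probe sets the median score was 15, with 15.5% at 20 or more, and 18.7% among probe sets of similar signal. PSMD11 (27 of 30), PSMC1 (26), PSMA3, PSMA5, PSMD9 and PSMD14 (25 each) moved most closely with the rest. PSMB10 scored lowest, with 8 of 30 arrays, followed by PSME2 (13) and PSME3IP1 (15). Under quantile normalization PSMB10 scored 10 of 30. These counts are descriptions, since arrays of 1 animal are not independent.

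PSMB10 lay instead on the side of PSMB9 in 28 of 30 arrays and on that of PSMB8 in 23. It lay on the side of PTPRC (CD45), a marker of leukocytes, in 25 arrays, of T and NK cell markers in 25, of macrophage markers in 24, of endothelial markers in 22, of fibroblast and matrix markers in 17 and of keratinocyte markers in 10. The median of the 38 genes lay on the side of PTPRC in 7 arrays, of T and NK cell markers in 9, of macrophage markers in 10, of endothelial markers in 8, of fibroblast and matrix markers in 9 and of keratinocyte markers in 20. It lay on the side of proteasome partner genes in 22 arrays and of ubiquitin and conjugating enzyme genes in 19, both lists described below. PSMB10 did so in 8 and 7 arrays. The mean of the T and NK cell markers fell to 6.10 in 1 array, below the lowest array median of 7.17. In the 48 h array of resistant animal 1 the keratinocyte markers deviated by -2.38, PTPRC by 2.07 and the macrophage markers by 1.45. The keratinocyte markers deviated by -1.29 in the 24 h array of susceptible animal 12 and by -0.57 in the 48 h array of susceptible animal 11. Among the high arrays named above, they deviated by 0.19 (resistant animal 3) and 0.64 (susceptible animal 8) at 24 h. At 48 h they deviated by -0.29 (resistant animal 3) and -0.09 (resistant animal 5). Their highest array, 1.42 in susceptible animal 10 at 48 h, had a proteasome median of 0.07. The endothelial markers deviated by 0.46 in the 48 h array of resistant animal 1, by 0.93 in the 24 h array of susceptible animal 12 and by 0.85 in the 48 h array of susceptible animal 11. In the high arrays at 24 h the endothelial markers deviated by -0.51 (resistant animal 3) and -0.42 (susceptible animal 8). At 48 h the values were -0.04 and 0.11 (resistant animals 3 and 5). The part of cell content in these array values was not tested.

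**Figure D4:**
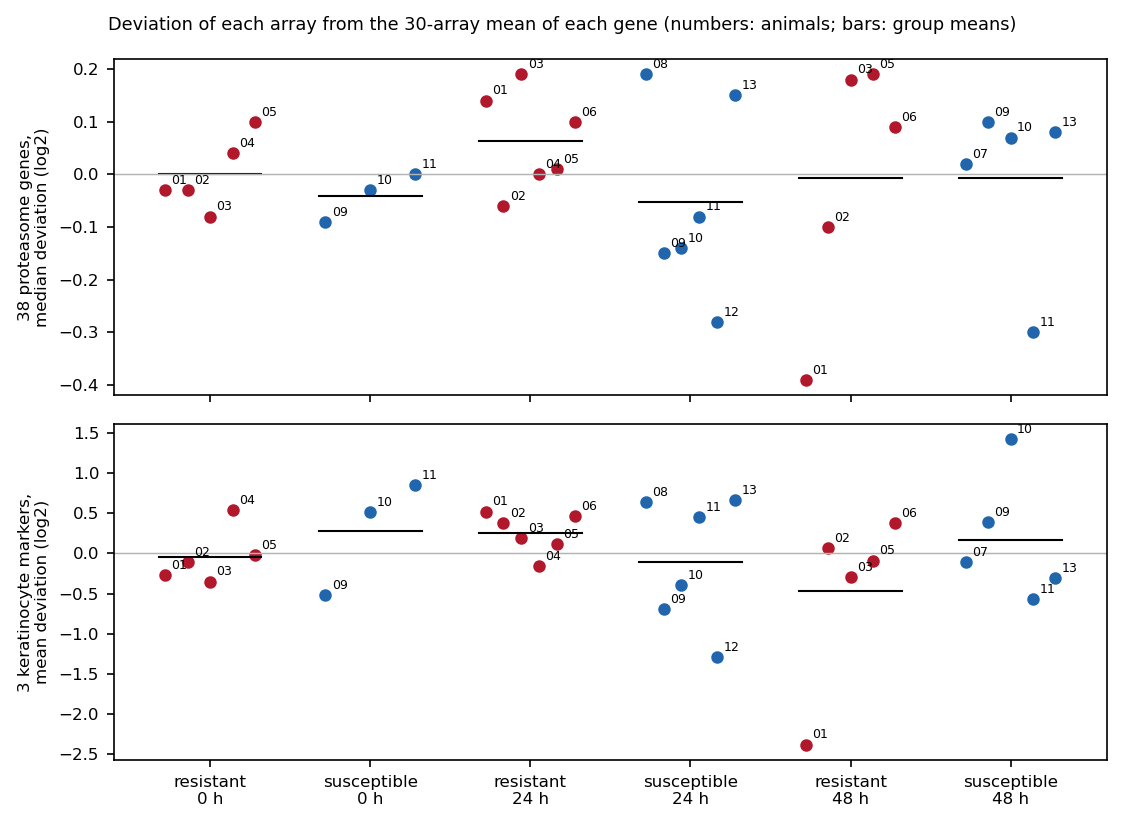
Upper panel, the median deviation of the 38 proteasome genes in each array (log2); lower panel, the mean deviation of the 3 keratinocyte markers (log2) in the same arrays. Points carry animal numbers and bars are group means; the 48 h array of resistant animal 1 is lowest in both panels, at -0.39 and -2.38.

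The genes also differed in how much they varied within groups. The median residual SD was 0.226 for the 38 genes, 0.257 for probe sets of similar signal and 0.317 for all probe sets. The sum of squares between animal numbers was 46.1% of the total for the median proteasome gene and 47.6% for all probe sets. With 13 animals on 30 arrays this share is large even where animals do not differ. It also holds the difference between phenotypes, so it is not an estimate of animal variance. PSME3IP1 (0.096), PSME4 (0.108) and PSMC6 (0.155) varied least, and PSMA4 (0.471), PSMB10 (0.433) and PSMD10 (0.415) varied most. The lowest PSMA4 array had 10.08, in resistant animal 4 at 0 h, against 11.79, 11.54, 11.46 and 11.30 in the others of its group.

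**Figure D5:**
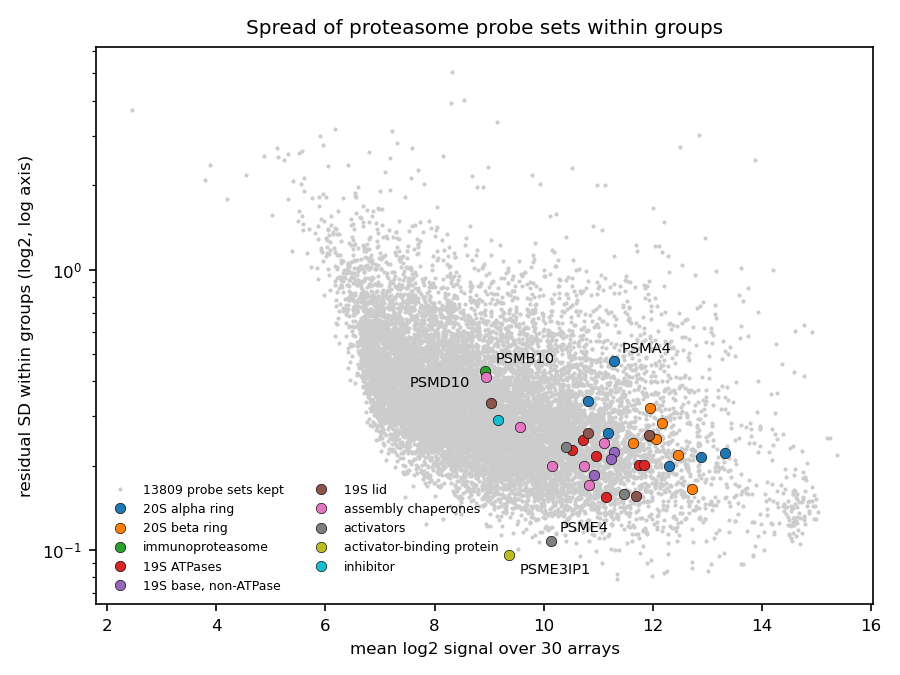
Residual SD within groups (log2 units, log axis) against mean log2 signal for the 38 proteasome genes, coloured by subcomplex, over the 13809 probe sets kept (grey). The proteasome genes have a median of 0.226 against 0.317 for all probe sets, with PSMA4, PSMB10 and PSMD10 at the top and PSME4 and PSME3IP1 at the bottom.

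Genes that work with the proteasome were read from 3 lists, none with a called gene. Of 28 partners of the proteasome, such as shuttle receptors, deubiquitinases and regulators, 18 were measured. In resistant skin 16 of 18 were lower at 48 h than at 0 h, with a median of -0.14 and 5 at an unadjusted p under 0.05 (all probe sets 11%). Their medians between phenotypes were 0.09, 0.07 and -0.06 at 0 h, 24 h and 48 h. UCHL5, a deubiquitinase of the 19S base, differed by -0.29 ± 0.16 between resistant and susceptible skin at 48 h (adjusted p = 0.55), and TXNL1, a thioredoxin bound to the 19S, by -0.18 ± 0.12 (adjusted p = 0.624). Beside them, at 48 h against 0 h in resistant skin, the medians were 0.07 for the alpha ring, 0.10 for the beta ring, 0.00 for the ATPases, -0.03 for the other base subunits, -0.03 for the lid and -0.07 for the chaperones.

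Of 22 ubiquitin and conjugating enzyme genes 16 were measured, with medians between phenotypes of 0.01, 0.00 and -0.05. At 48 h UBE2G1 differed by -0.22 ± 0.10 (adjusted p = 0.477) and UBE2V1 by 0.25 ± 0.14 (adjusted p = 0.549); each is a conjugating enzyme or a variant of one. Of 13 genes of interferon-gamma antigen processing 9 were measured, PSMB8 and PSMB9 among them. Their median between phenotypes was -0.40 at 0 h (7 of 9 lower in resistant skin), -0.08 at 24 h and 0.07 at 48 h. In resistant skin 8 of 9 were higher at 48 h than at 0 h, with a median of 0.31 and 4 at an unadjusted p under 0.05 (all probe sets 11%). Between phenotypes 4 of 9 reached that level at 0 h (all probe sets 4.51%) and 0 at 48 h (all probe sets 10.1%). For the difference between phenotypes of the 48 h response 3 of 9 did (all probe sets 2.93%), with a median of 0.47. Between phenotypes at 48 h PSMB9 differed by 0.48 ± 0.26 (adjusted p = 0.54) and PSMB8 by 0.46 ± 0.27 (adjusted p = 0.567).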

How the data were processed

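The deposited values are log2 signal values that the authors made with MAS5, per the submitters' processing notes (version not given in the sources used here). Per the labels, RNA kept in RNAlater was extracted (Trizol, RNeasy) and 50 ng of it amplified and labelled (3' IVT Express). Unlogged, each array's values had 500 as their 2% trimmed mean, and nothing further was normalized. The array holds 24128 probe sets, 112 of them controls; 13809 were kept, each at or above the array median of the remaining 24016 in at least 3 arrays. Symbols came from the supplied platform annotation (13292 probe sets with 1 symbol, 86 with several, 10638 with none). All 30 arrays and all kept probe sets entered 1 limma fit (version 3.58.1, R 4.3.3; eBayes with trend) with a mean for each of the 6 groups, read out in 11 comparisons. Tests were two-sided; Benjamini-Hochberg adjustment covered all 13809 probe sets, and the threshold was 0.05. Biopsies came from separate animals within a group and time, while times share animals. The fit was tested on simulated data.

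Proteasome genes and the lists were chosen with earlier results of these data known. The pathway lists were proteasome partners, ubiquitin and conjugation, and interferon-gamma antigen processing. Marker lists used here were those of keratinocytes, macrophages, leukocytes, T and NK cells, mast cells, endothelium, and fibroblasts and matrix. All genes are counted by subcomplex; named with values are the 3 of smallest p in each comparison, the catalytic and PA28 genes, the extremes of level and spread, and 2 genes of each pathway list of smallest p at 48 h between phenotypes; other genes were named after their values were seen. Families of ribosomal and respiratory chain genes were added after the data were seen. The pairing by animal comes from the labels, which give arrays of an animal the same number; 3 resistant arrays at 0 h lay closer to other numbers. Alternatives were quantile normalization, median centring, no filter, an offset of 16 on the linear signal, the animal as a random or fixed block, only the groups compared, no trend, array weights, every probe set of the genes, the genes without interferon-regulated members and those that are not subunits, and leaving out each array. The fixed block with 3 numbers moved was added after the data were seen. Plots used matplotlib 3.10.9 in Python 3.11.15.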

Additional observations from a re-analysis of the deposited data

Results flagged for a closer look

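Of the 115 pairs of a named gene and a group of 4 to 10 arrays, 4 held an array far from the others of its group, and chance alone gives about 1 such group in 20. PSMA4 was 10.08 in resistant animal 4 at 0 h, where the next array was at 11.30. PSME3IP1 was 9.49 in resistant animal 2 at 0 h, with the next array at 9.37. PSME4 was 10.18 in resistant animal 4 at 0 h, with the next at 9.98. PSME1 was 11.15 in susceptible animal 9 at 24 h, with the next at 11.44. The median deviation over the 38 proteasome genes was -0.30 in susceptible animal 11 at 48 h, with the next array of the group at 0.02.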

How the results depend on the processing

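No proteasome gene passed the adjusted threshold under any alternative, including each array left out in turn. With all arrays, each median over the genes was smaller than the SD between arrays (0.156), which is not the standard error of a difference. Leaving out 1 array took several medians across 0. They ran from -0.03 to 0.15 between phenotypes at 48 h and from -0.10 to 0.08 for the difference of the 48 h response. In resistant skin they ran from -0.04 to 0.10 at 48 h against 0 h and from -0.11 to 0.02 against 24 h. In susceptible skin the range was -0.04 to 0.06 at 24 h against 0 h. The count of genes higher in resistant skin at 24 h was 35 or 36 of 38 under the other scalings, blocks and weights, and 32 to 37 without 1 array. Of the named values 8 changed sign, all near 0 at 24 h between phenotypes. PSMB10 (-0.07) was 0.00 with array weights and lay between -0.25 and 0.09 without 1 array, and PSME1 (0.02) lay between -0.04 and 0.06 without 1 array; the cause was not tested. With the animal as a fixed replicate block, PSMB10 in resistant skin at 48 h against 0 h was 0.91 (adjusted p = 0.0723), and 0.89 with the 3 numbers moved (adjusted p = 0.0518); over all its alternatives the adjusted p ran from 0.0518 to 0.643. The random block had a consensus correlation of 0.143. Neither block nor pairing changed a call of a proteasome gene. Over all probe sets, calls at 48 h against 0 h in resistant skin numbered 0 with no block, 2 with the random block, 84 with the fixed block and 108 with the 3 numbers moved, and at 48 h against 24 h 16 with the numbers moved and 0 otherwise. With 3 susceptible arrays at 0 h, differences against that group carry the widest intervals, and detection calls were not used here.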

Other observations

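Cytosolic ribosomal proteins, another large set of housekeeping genes, are given beside the proteasome genes. In resistant skin 68 of 73 were higher at 48 h than at 0 h (median 0.13), and in susceptible skin 30 of 73 were (median -0.01). The difference between phenotypes of the 48 h response was above 0 for 66 of 73, with a median of 0.14, against 17 of 38 proteasome genes with a median of -0.04 (0.08 without the 48 h array of resistant animal 1, and -0.10 without that of susceptible animal 11). These counts were not tested.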
